A study of Saccharomyces cerevisiae with 6 samples.

Results

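The genes described here are the 24 seripauperin genes PAU1 to PAU24 of Saccharomyces cerevisiae and 6 related cell wall genes, DAN1, DAN4 and TIR1 to TIR4. They were chosen by name, through their open reading frame identifiers, and make up 30 of the 6696 reading frames counted. The RNA came from 6 samples in 4 groups, all of the haploid laboratory strain BY4741 or its deletion derivative. These were the deletion strain BY4741 cyc8Δ::kanMX4 in YPMan (1 library), wild-type BY4741 in YPMan (1 library), the deletion strain in YPGlc (2 libraries) and wild-type BY4741 in YPGlc (2 libraries). YPMan holds 2% mannose and YPGlc 2% glucose, both on 1% yeast extract and 2% peptone, and the characteristics of each sample give 3 h in its medium. The growth protocol states a time for mannose only, so whether cultures in both media were handled alike is not settled, and this touches every value of mannose against glucose. All groups share the BY4741 background and grew in rich medium. Whether the deletion strain was 1 clone, and whether replicates were separate cultures, is not stated, so p-values measure the spread between these samples, which may be technical.

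Seripauperins are small, serine-poor proteins of the largest gene family of budding yeast, most of whose genes sit next to chromosome ends. DAN and TIR genes encode serine- and threonine-rich mannoproteins that are anchored in the cell wall and take the place of aerobic wall proteins such as Cwp1 and Cwp2 when oxygen is lacking. In aerobic cells both sets are known to be kept silent by repressors that recruit the Cyc8-Tup1 corepressor, among them Rox1 and Mot3, and to be turned on in anaerobic cells by the zinc cluster activator Upc2, which binds the sites called AR1 and sterol response element.

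Total RNA was depleted of ribosomal RNA and sequenced as stranded libraries. The libraries held 26195734 to 44084216 counts, the fewest in the deletion strain in mannose. The deleted gene CYC8 had 180 counts in the deletion strain in mannose against 7602 in wild type in mannose, and 71 and 124 counts in the deletion strain in glucose against 7506 and 9295 in wild type in glucose. URA3, LEU2 and MET17, which are removed in BY4741, had 0 counts in all 6 libraries. HIS3, another marker of this background, had 583 to 1424 counts in the deletion libraries and 1263 to 2151 in wild type. Of the mating-type a genes, STE2 had 373 to 1953 counts in the deletion against 6313 to 11483 in wild type. MFA1 had 50 to 69 against 97 to 173. Of the mating-type alpha genes, STE3 had 6 to 18 against 109 to 140, and MF(ALPHA)1 2 to 8 against 5 to 9. Levels are given as CPM, read counts relative to library size after TMM scaling. Changes are on the log2 scale, with the standard error of 1 edgeR quasi-likelihood fit over all libraries, and were called at a Benjamini-Hochberg adjusted p under 0.05. Each mannose group is 1 library, and its tests take their spread from the glucose replicates. In bulk RNA a change in every cell and a change in the share of cells that express a gene cannot be told apart.

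The seripauperin copies are so alike that reads cannot always be assigned to 1 of them, and this limits every value below. The coding sequences of PAU1 and PAU14, of PAU6 and PAU18, and of PAU21 and PAU22 are identical. PAU1 and PAU14, like PAU21 and PAU22, had equal counts in 6 of 6 libraries, and PAU6 and PAU18 in 5 of 6. In replicate 1 of the deletion in glucose PAU6 had 17588 counts and PAU18 20701, a ratio of 0.85. Of the 24 genes, 7 have no stretch of 50 bases that is unique in the genome's reading frames, and 2, PAU5 and PAU7, share no such stretch with any other. All 50-base stretches of PAU9 occur in both PAU11 and PAU12, so its counts need not be its own. The 6 DAN and TIR genes share no 50-base stretch with any reading frame.

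By coding length the seripauperins fall into 13 genes of 121 codons, PAU5 with 123, 6 genes of 124 to 125 codons (PAU3, PAU15, PAU16, PAU17, PAU19 and PAU23), PAU21 and PAU22 with 165, and the short PAU7 and PAU9 with 56 and 43 codons. Beyond the short frames, the groups are those of single linkage at 88% coding identity, a grouping chosen after the values were seen that serves as a description. Pairs within the 121-codon class are at least 92.6% identical (median 96.4% over 78 pairs), pairs within the class of 124 to 125 codons 88.1% to 98.1%, and pairs between these classes 82.5% to 87.5%. In the plot of identities the 121-codon genes form the bright block, and the genes of 124 to 125 codons a second, smaller one.

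**Figure D1:**
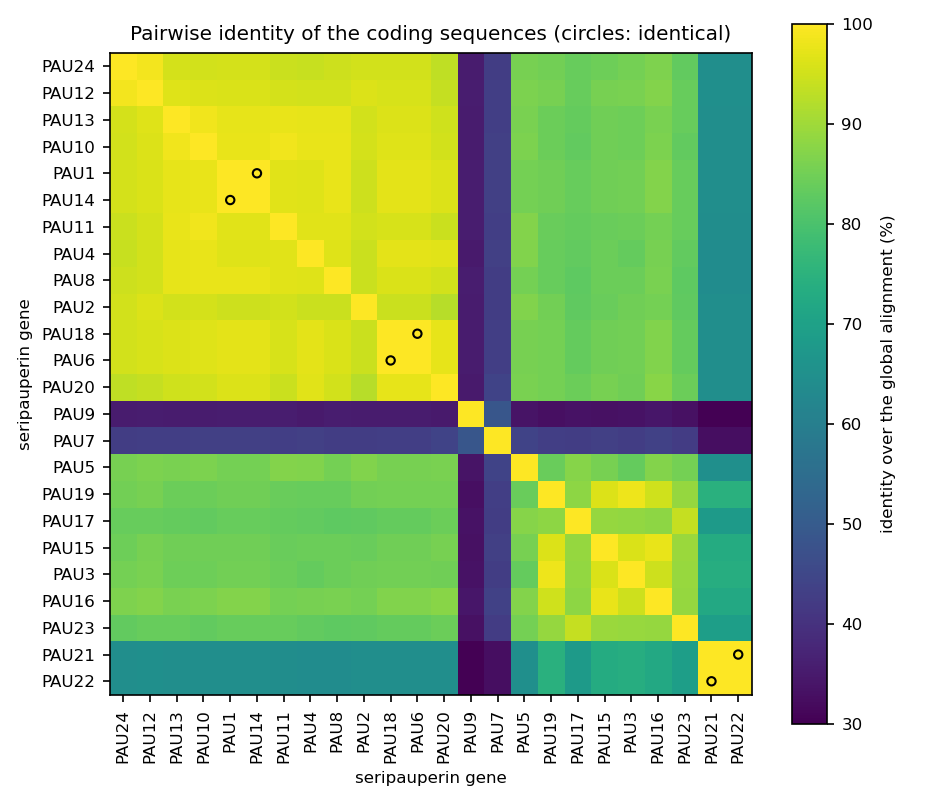
Pairwise identity (%, colour scale) of the coding sequences of the 24 seripauperin genes over global alignments, ordered by coding length class; circles mark identical pairs. The 13 genes of 121 codons form a block with identities of at least 92.6%. The short PAU7 and PAU9 have the lowest identities, at most 48.6% with any other gene, over alignments of unequal lengths. PAU21 and PAU22 are identical to each other and at most 74.55% identical to the rest.

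Both kinds of pair are shown because their members can be set side by side. PAU24 (YBR301W) and PAU12 (YGR294W), at chrII:809057-809419 and chrVII:1080306-1080668, both on the plus strand of the RefSeq genome of the R64 assembly, are the 2 most abundant genes of the 121-codon class in the deletion strain and differ at 4 of 363 bases. PAU17 (YLL025W) and PAU23 (YLR037C), at chrXII:94747-95121 on the plus strand and chrXII:222685-223059 on the minus strand, are the 2 most alike of the internal copies, differ at 23 of 375 bases, and have 91.4% unique 50-base stretches each. The last 300 bases of each coding sequence follow 5′ to 3′, with the bases at which a pair differs in capitals, all 4 of the first pair and 15 of the second.
PAU24: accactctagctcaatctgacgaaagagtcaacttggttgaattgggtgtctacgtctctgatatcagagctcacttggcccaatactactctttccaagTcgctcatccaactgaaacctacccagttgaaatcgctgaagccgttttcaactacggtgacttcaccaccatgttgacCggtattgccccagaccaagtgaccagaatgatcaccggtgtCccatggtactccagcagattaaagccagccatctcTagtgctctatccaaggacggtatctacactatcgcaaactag
PAU12: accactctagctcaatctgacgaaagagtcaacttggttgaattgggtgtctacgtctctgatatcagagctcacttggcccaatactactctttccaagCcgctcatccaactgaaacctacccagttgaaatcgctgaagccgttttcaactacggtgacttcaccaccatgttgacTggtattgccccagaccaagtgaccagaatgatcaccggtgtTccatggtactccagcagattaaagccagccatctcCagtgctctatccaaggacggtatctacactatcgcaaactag
PAU17: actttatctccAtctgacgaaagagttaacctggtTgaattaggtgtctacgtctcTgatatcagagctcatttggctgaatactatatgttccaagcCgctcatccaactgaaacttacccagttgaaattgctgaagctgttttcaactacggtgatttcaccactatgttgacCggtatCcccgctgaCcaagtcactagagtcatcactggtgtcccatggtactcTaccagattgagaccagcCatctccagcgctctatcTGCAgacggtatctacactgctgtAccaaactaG
PAU23: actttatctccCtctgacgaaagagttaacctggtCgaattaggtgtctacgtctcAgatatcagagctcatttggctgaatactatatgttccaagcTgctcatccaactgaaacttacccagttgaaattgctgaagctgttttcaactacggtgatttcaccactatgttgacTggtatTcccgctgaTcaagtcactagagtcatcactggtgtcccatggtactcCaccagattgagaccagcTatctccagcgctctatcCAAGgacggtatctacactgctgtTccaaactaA

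The 30 genes took a far larger share of the RNA in the deletion strain. Their summed counts were 0.956% of the total in the deletion in mannose against 0.0148% in wild type in mannose, and 2.96% and 2.56% in the deletion in glucose against 0.0117% and 0.0121% in wild type in glucose. Seripauperins alone took 0.515% in the deletion and 0.0043% in wild type in mannose, and 2.17% and 1.85% in the deletion and 0.0039% and 0.0038% in wild type in glucose. The DAN and TIR genes took 0.441% against 0.0105% in mannose, and 0.784% and 0.711% against 0.00779% and 0.0083% in glucose. Reads shared between copies may be counted more than once in the seripauperin sums. Per kb of coding sequence, PAU24 ranked 6th and TIR1 9th of 5988 reading frames in the deletion in glucose, and 12 of the 30 genes were among the top 100. In the deletion in mannose 6 were, and in wild type none was among the top 1000 in either medium. The 12 in glucose include PAU9, whose counts need not be its own, and the identical PAU1 and PAU14, which had equal counts. PAU9 is also among the 6 in mannose. Other seripauperins in these lists share part of their sequence as well, so the 12 and the 6 need not be separately measured genes.

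**Figure D2:**
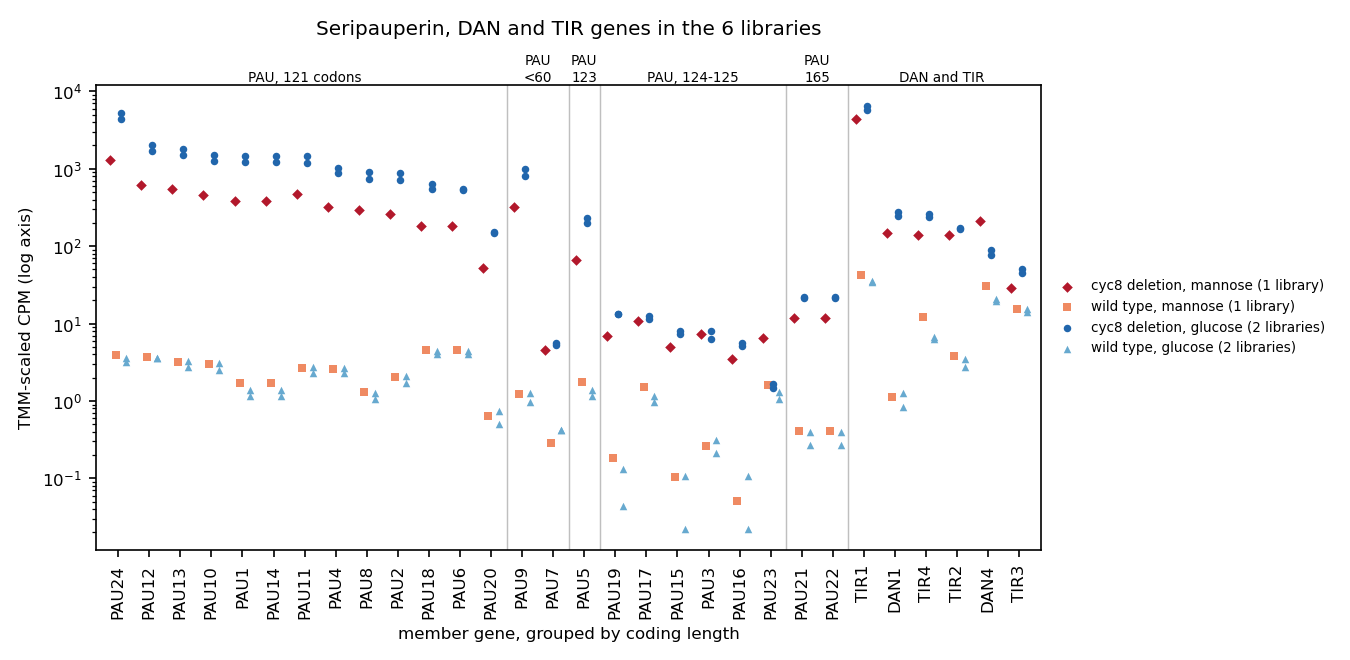
TMM-scaled CPM (log axis) of each of the 30 genes in each of the 6 libraries, by coding length class; each symbol is 1 library. The 121-codon genes lie at 51.6 CPM or more in the 3 deletion libraries and at 4.61 CPM or less in the 3 wild-type libraries, while PAU23 lies between 1.06 and 6.47 CPM in all 6.

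In glucose the deletion raised 29 of the 30 genes and lowered none, against 30.1% higher and 37.8% lower of the 6146 reading frames tested (edgeR's quasi-likelihood test, Benjamini-Hochberg adjusted). The median log2 fold change was 7.30 over the 30 genes and -0.08 over all reading frames tested, and it was above 0 for each of the 30, also with DESeq2. All 30 genes passed the filter on low counts. PAU15, PAU16 and PAU19, with at most 7 counts in any wild-type library, passed it only through the deletion libraries, where they are high. Members of the family have a GC content of 43.2% to 49.9%, against a median of 39.8% over nuclear reading frames, and with smooth trends on GC content and length removed their median was 6.47, with 29 genes still called higher.

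The largest rises were among the 121-codon seripauperins, although members of this class and genes outside it overlapped in the size of their rise. PAU24, next to the right end of chromosome II, had 5231 and 4397 CPM in the deletion against 3.17 and 3.56 CPM in wild type. Its log2 fold change of 10.48 ± 0.14 is the largest of all reading frames tested (adjusted p = 4.91e-79). PAU12 had 2042 and 1684 CPM in the deletion against 3.57 and 3.63 CPM in wild type, a change of 9.02 ± 0.12. In both genes the lowest deletion library was far above the highest wild-type library.

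PAU24 and PAU12 were close to each other in wild type and not in the deletion. The ratio of PAU24 to PAU12 counts was 2.11 in the deletion in mannose against 1.06 in wild type in mannose, and 2.56 and 2.61 in the deletion in glucose against 0.89 and 0.98 in wild type in glucose. All 3 deletion libraries were thus above all 3 wild-type libraries, although the genes differ at only 4 bases and share 45.5% of their 50-base stretches. The other genes of the class rose by 6.99 (PAU6) to 10.04 (PAU1 and PAU14, which cannot be separated). PAU20 was the least abundant of them in the deletion, with 153 and 146 CPM against 0.506 and 0.734 CPM in wild type. Class means ran from 149.6 to 4814 CPM in the deletion in glucose and from 0.62 to 4.22 CPM in wild type in glucose.

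The genes of 124 to 125 codons reached far lower levels. Per kb of coding sequence, their mean level was 4.19 to 35.2 CPM per kb in the deletion in glucose, against 412 to 13260 for the 121-codon class, so that the classes did not overlap. In wild type in glucose the ranges were 0.172 to 3.17 and 1.71 to 11.6 CPM per kb and overlapped. PAU15, PAU16 and PAU19 had 5, 5 and 7 counts over both wild-type libraries in glucose. Their ratios of CPM between deletion and wild type were 125 (95% interval 53.4 to 388, counting error only), 87.6 (37.2 to 271) and 156 (75.4 to 389). Single wild-type libraries moved these changes by over 1.5 times. The fitted log2 fold changes were 6.90, 6.38 and 7.23 in the order given, and they were 8.21, 7.70 and 8.11 without wild-type glucose replicate 1 and 6.11, 5.60 and 6.60 without replicate 2. PAU3 had 8.10 and 6.34 CPM in the deletion against 0.213 and 0.311 CPM in wild type (4.73 ± 0.26).

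PAU17 and PAU23, the internal copies shown above, had unlike values in glucose, and the difference between them was not tested. PAU17 had 12.4 and 11.4 CPM in the deletion against 1.14 and 0.956 CPM in wild type, a rise of 3.50 ± 0.17 (adjusted p = 1.34e-33, edgeR). PAU23 had 1.68 and 1.46 CPM in the deletion against 1.06 and 1.31 CPM in wild type. The groups of PAU23 did not overlap but the change of 0.38 ± 0.25 did not pass the test (adjusted p = 0.172, edgeR), and it was -0.40 with the GC and length trends removed. PAU23 was the 1 gene of the 30 not called in glucose.

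The remaining seripauperins rose as well. PAU5 (YFL020C), an internal gene with reads of its own, had 229.9 and 199 CPM in the deletion against 1.14 and 1.40 CPM in wild type (7.38 ± 0.12). PAU21 and PAU22, which cannot be separated, each had 21.1 and 21.8 CPM in the deletion against 0.399 and 0.267 CPM in wild type (6.02 ± 0.19). PAU7, whose short frame is unique, had 5.53 and 5.30 CPM in the deletion against 0.426 and 0.423 CPM in wild type (3.66 ± 0.25). For PAU9 the change of 9.66 ± 0.13 rests on stretches found in PAU11 and PAU12.

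All 6 DAN and TIR genes rose in glucose, over a wide range. TIR1 (YER011W, chrV:175248-176012, plus strand), a wall mannoprotein also known for its induction by cold, had 6530 and 5777 CPM in the deletion against 34.2 and 35.0 CPM in wild type (7.47 ± 0.12). DAN1 (YJR150C, chrX:708811-709707, minus strand), a wall mannoprotein made in anaerobic cells, had 278 and 247 CPM in the deletion against 0.825 and 1.27 CPM in wild type (7.94 ± 0.12). TIR1 thus had the higher level in both strains, also per kb of coding sequence, and DAN1 the larger fold change. TIR1 made up 88.8% and 87.9% of DAN and TIR counts in the deletion in glucose against 43.5% and 43.0% in wild type in glucose.

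TIR2 (YOR010C) and TIR4 (YOR009W) lie next to each other on chromosome XV, face to face with 396 bases between their frames. TIR2 had 170 and 166 CPM in the deletion against 2.71 and 3.45 CPM in wild type (5.76 ± 0.10). TIR4, known to be needed for growth without oxygen, had 236 and 262 CPM in the deletion against 6.31 and 6.74 CPM in wild type (5.25 ± 0.09). Both neighbours rose, and so did AUS1, a sterol importer gene 2728 bases beyond TIR2, by 1.76 ± 0.08.

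DAN4 and TIR3 had the smallest rises. DAN4 (YJR151C), the longest of the set with 1162 codons, had 89.6 and 76.2 CPM in the deletion against 20.6 and 19.3 CPM in wild type (2.06 ± 0.08). TIR3 (YIL011W), a wall mannoprotein gene known to be needed for growth without oxygen, had 51.3 and 45.3 CPM in the deletion against 14.0 and 15.6 CPM in wild type (1.70 ± 0.09, and 0.89 with the GC and length trends removed). DAN4 lies 2547 bases from DAN1 on the same strand of chromosome X, and their fold changes in the deletion differed widely.

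**Figure D3:**
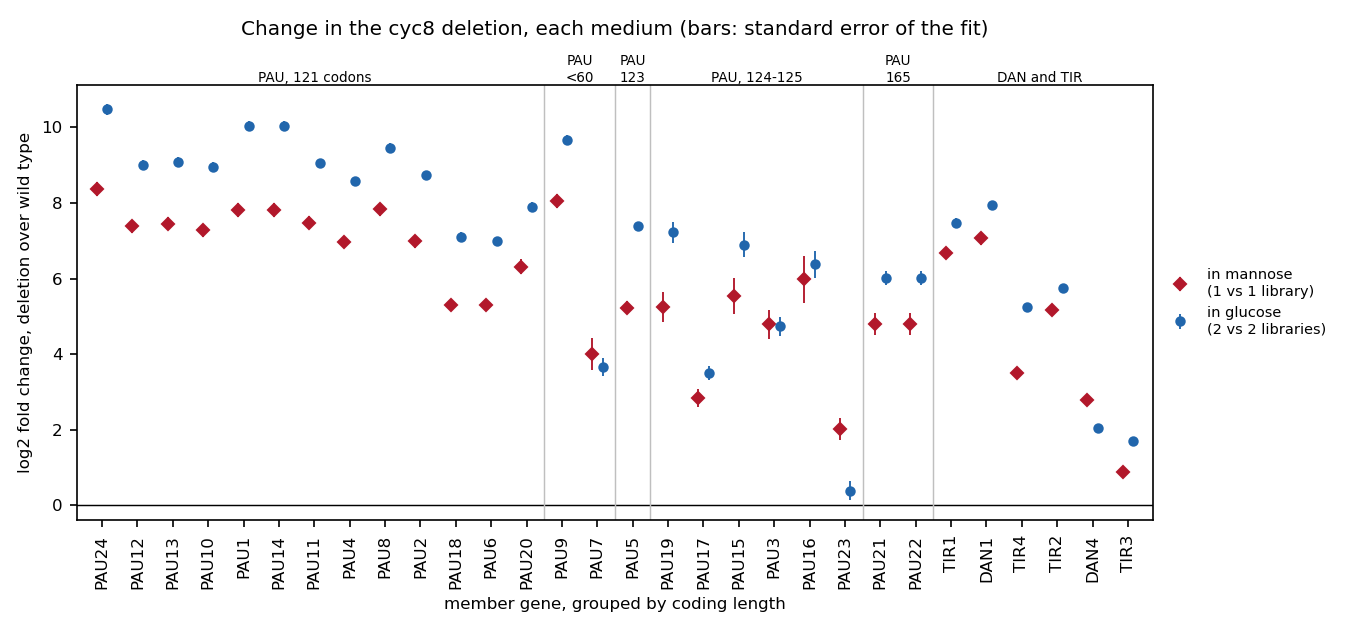
Log2 fold change of the deletion over wild type for each of the 30 genes, in mannose (1 against 1 library) and in glucose (2 against 2), with bars for the standard error of the fit. Values in mannose lie below those in glucose for most genes, and PAU23 is at 0.38 in glucose and 2.01 in mannose.

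In mannose the deletion raised all 30 genes, against 38.3% higher and 41.1% lower of all reading frames tested. This compares 1 library with 1, and the median log2 fold change was 5.76 over the 30 genes and -0.07 over all. Upper-quartile scaling moved the median of all reading frames to -0.39 and the calls to 1852 higher and 3141 lower, from 2352 and 2527, and left all 30 genes called higher. PAU24 had 1312 CPM in the deletion against 3.96 CPM in wild type (8.37 ± 0.18). TIR1 had 4418 CPM in the deletion against 42.9 CPM in wild type (6.69 ± 0.16).

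The same classes stood apart in mannose. The 121-codon genes had 51.6 to 1312 CPM in the deletion against 0.647 to 4.61 CPM in wild type, and the genes of 124 to 125 codons 3.48 to 10.7 CPM against 0.0518 to 1.61 CPM. PAU16, with 79 counts in the deletion and 2 in wild type, gave a ratio of 67.1 with a 95% interval of 18 to 564 (counting error only). PAU23 had 6.47 CPM in the deletion against 1.61 CPM in wild type, a rise of 2.01 ± 0.29 (adjusted p = 2.27e-09, edgeR). This gene therefore passed the test for genotype in mannose and not in glucose, a difference that itself passed the interaction test (adjusted p = 0.000176, edgeR).

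Among the wall mannoprotein genes DAN1 had 149.6 CPM in the deletion against 1.11 CPM in wild type in mannose (7.07 ± 0.17). DAN4 had 210.3 CPM against 30.4 CPM (2.79 ± 0.12). TIR3 had 28.5 CPM in the deletion against 15.6 CPM in wild type, a change of 0.87 ± 0.14 that passed the test and was -0.24 with the GC and length trends removed. TIR2 and TIR4 had 138 and 139.7 CPM in the deletion against 3.86 and 12.3 CPM in wild type. The adjusted p of TIR3 was 1.62e-08 in edgeR's test, and 0.0748 with a fixed biological coefficient of variation of 0.2.

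Within the deletion strain, mannose lowered 25 of the 30 genes and raised 2, against 39.7% lower and 37.6% higher of all reading frames tested. The median log2 fold change was -1.19 over the 30 genes and -0.04 over all. Upper-quartile scaling moved these medians to -1.45 and -0.30 and the calls of all reading frames to 1822 higher and 3051 lower, from 2308 and 2438. The deletion library in mannose had the fewest counts and a TMM factor of 0.868, and its deviation from wild type in glucose ran with GC content across genes (Spearman's rho 0.298, against 0.426 for wild type in mannose). The rho was 0.161 and 0.132 for the deletion in glucose. For the wild-type glucose libraries, each against their mean, it was -0.236 and 0.236. With the GC and length trends removed 26 of the 30 genes were lower and 2 higher, with a median of -1.65 over the 30 and -0.18 over all. The part of the lower depth in the result was not tested.

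The 121-codon genes fell together and kept to a narrow range, from -1.88 (PAU24) to -1.48 (PAU8). PAU24 had 1312 CPM in mannose against 5231 and 4397 CPM in glucose in this strain. PAU5 had 66.0 CPM in mannose against 229.9 and 199 CPM in glucose (-1.70 ± 0.10). These genes still lay far above wild type, so that the deletion in mannose took a middle place between the deletion in glucose and wild type.

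The genes of 124 to 125 codons did not move as 1 group. PAU19 fell to 6.99 CPM in mannose against 13.2 and 13.3 CPM in glucose (-0.92 ± 0.18). PAU15 and PAU16 fell by 0.62 and 0.61, calls that DESeq2 did not make (adjusted p 0.118 and 0.191). PAU3 and PAU17 were not called, with changes of 0.02 ± 0.20 and -0.14 ± 0.17. PAU3 was at -0.24 with upper-quartile scaling, and PAU17 passed the test at -0.40 with that scaling.

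PAU23 went the other way. It had 6.47 CPM in mannose against 1.68 and 1.46 CPM in glucose in the deletion strain, a rise of 2.05 ± 0.25 (adjusted p = 5.17e-12, edgeR). PAU17, the most alike gene, had 10.7 CPM in mannose against 12.4 and 11.4 CPM in glucose. PAU21 and PAU22 fell by 0.88, and PAU7 had 4.62 CPM in mannose against 5.53 and 5.30 CPM in glucose and was not called (-0.23 ± 0.23).

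**Figure D4:**
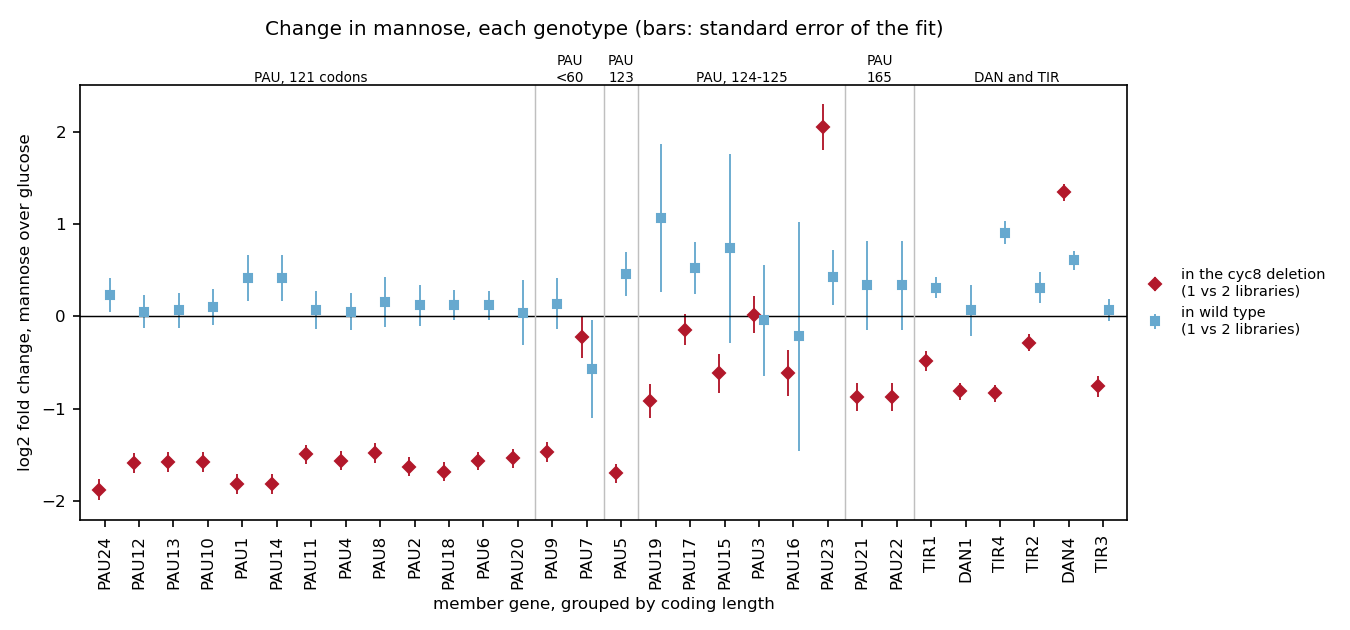
Log2 fold change of mannose over glucose for each of the 30 genes within the deletion strain and within wild type (1 against 2 libraries each), with bars for the standard error of the fit. In the deletion the 121-codon genes lie between -1.88 and -1.48, and PAU23 and DAN4 lie at 2.05 and 1.34.

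Of the DAN and TIR genes 5 fell and DAN4 rose in mannose within the deletion strain. DAN4 had 210.3 CPM in mannose against 89.6 and 76.2 CPM in glucose (1.34 ± 0.09, and 0.62 with the GC and length trends removed). DAN1 fell to 149.6 CPM in mannose against 278 and 247 CPM in glucose (-0.81 ± 0.09). The neighbours DAN1 and DAN4 thus moved in opposite directions.

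TIR4 fell to 139.7 CPM in mannose against 236 and 262 CPM in glucose (-0.83 ± 0.09). TIR3 fell to 28.5 CPM in mannose against 51.3 and 45.3 CPM in glucose (-0.76 ± 0.11). TIR1 fell to 4418 CPM in mannose against 6530 and 5777 CPM in glucose (-0.48 ± 0.11), and TIR2 by 0.28 ± 0.09. In all 4 genes the mannose library was below both glucose libraries. With a fixed biological coefficient of variation of 0.2 none of the 5 falls among DAN and TIR genes passed the test, and 16 of the 30 genes stayed called lower.

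Within wild type, mannose raised 3 of the 30 genes, DAN4, TIR1 and TIR4, and lowered none, against 20.5% higher and 16.9% lower of all reading frames tested. The members' share of higher calls is therefore below the background, but many members had few counts in wild type. PAU16, PAU7 and PAU21 had 2, 11 and 16 counts in mannose, and their changes had standard errors of 1.24, 0.54 and 0.48. Small changes of such genes could not pass the test, so the share does not separate a weak response from low depth. At an unadjusted p under 0.05 the count was also 3, all higher, and DESeq2 called 3 higher and none lower. TIR4 had 12.3 CPM in mannose against 6.31 and 6.74 CPM in glucose (0.91 ± 0.12, adjusted p = 1.41e-09, edgeR). DAN4 had 30.4 CPM in mannose against 20.6 and 19.3 CPM in glucose (0.61 ± 0.10).

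TIR1 had 42.9 CPM in mannose against 34.2 and 35.0 CPM in glucose in wild type (0.31 ± 0.11). Its call (adjusted p = 0.0258, edgeR) was lost without wild-type glucose replicate 1 (adjusted p = 0.133) and without replicate 2 (adjusted p = 0.0999), and its change was -0.010 with the GC and length trends removed. No seripauperin was called in this comparison, and their changes ran from -0.57 (PAU7) to 1.06 (PAU19). PAU19 rested on 7 counts in mannose against 5 and 2 counts in glucose, and a change of that gene was not detectable at this depth. With a fixed biological coefficient of variation of 0.2 none of the 30 genes was called.

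Whether the effect of the deletion differs between the media was tested by the interaction term. It was below 0 in 23 of the 30 genes and above 0 in 2 by the test, against 34.4% lower and 29.7% higher of all reading frames tested, so that for the 23 the effect of the deletion was smaller in mannose. The median term was -1.59 over the 30 genes and -0.08 over all. Upper-quartile scaling moved the median of all reading frames to -0.33 and the calls of all reading frames to 1387 higher and 2820 lower, from 1826 and 2117. The 121-codon genes had terms from -2.23 (PAU1 and PAU14) to -1.57 (PAU11). PAU23 (1.63 ± 0.39) and DAN4 (0.73 ± 0.14) were the 2 genes with a positive call, and that of DAN4 was lost at 0.19 with the GC and length trends removed.

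The position of the seripauperins on the chromosomes was not used to choose them. Of the 24 genes, 19 start within 20 kb of a chromosome end, at 1.42 to 14.9 kb, and PAU2, PAU5, PAU7, PAU17 and PAU23 lie further in. All 19 are transcribed toward the end, against 121 of 227 other reading frames (53.3%) in the same windows. The DAN and TIR genes lie 30.01 to 346 kb from the nearest end. Among the other reading frames within 20 kb, 143 of 212 tested (67.5%) were higher and 32 lower in the deletion in glucose, with a median log2 fold change of 0.51, against 28.7% higher outside the windows. In these windows all 19 seripauperins and 30 of the other reading frames were at least 16-fold higher.

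**Figure D5:**
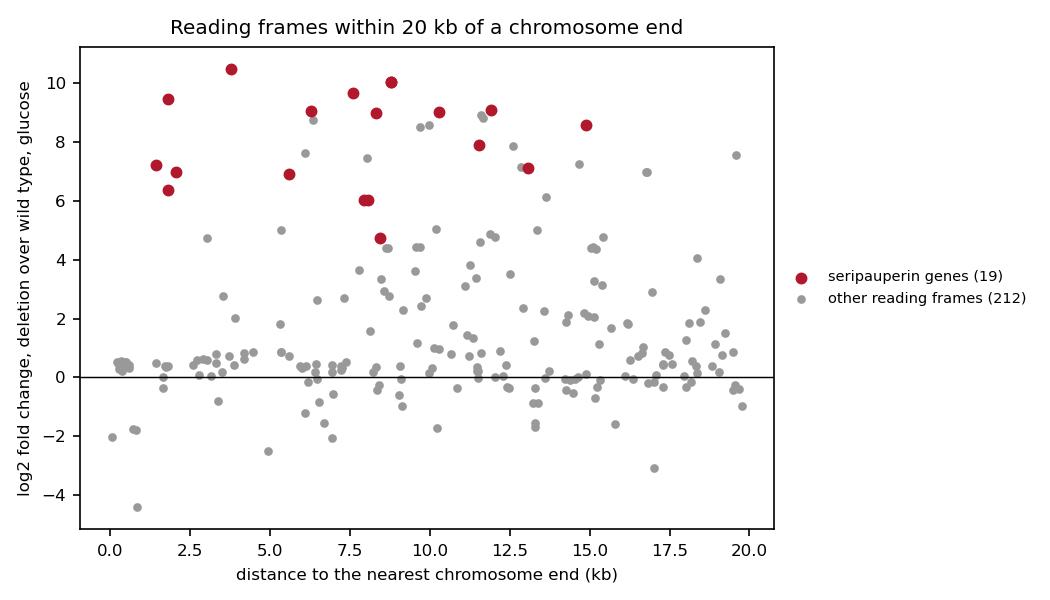
Log2 fold change of the deletion over wild type in glucose against distance to the nearest chromosome end (kb), for the 19 seripauperin genes and 212 other reading frames within 20 kb. The seripauperins have a median of 8.58 and the other reading frames a median of 0.51.

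The 19 seripauperins within 20 kb of an end rose by 4.73 or more in glucose, and the 5 internal ones spread more widely. The 3 smallest changes of the 24 were those of the internal PAU23 (0.38, not called), PAU17 (3.50) and PAU7 (3.66). The internal PAU2 rose by 8.73 ± 0.12, with 883 and 723 CPM in the deletion against 2.10 and 1.69 CPM in wild type in glucose. PAU5 lies 99.2 kb from an end and rose by 7.38, while PAU3, 8.45 kb from an end, rose by 4.73. PAU2 belongs to the 121-codon class and PAU3 to that of 124 to 125 codons.

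Upstream regions were searched on both strands, over 500 bases before each start codon, for the published core sites of the pathway. The AR1 site (TCGTTCAG or TCGTTTAG) was found before 21 of the 30 genes (70.0%), 18 of them seripauperins, against 3.2% of 5986 such regions in the genome. The sterol response element (TCGTATA) was found before 12 of the 30 (40.0%) against 7.0%, and the Rox1 core (ATTGTTC) before 5 (16.7%) against 11.8%. No match of 1 motif overlapped a match of another before these 30 genes, copies of a gene family have related upstream sequences, and a match is a description of the letters only. PAU24 is shown for its level, PAU23 for its different response and DAN1 for its pair of AR1 sites. The regions run from 450 to 151 bases before the start codon, at chrII:808607-808906 (plus strand), chrXII:223210-223509 and chrX:709858-710157 (both minus strand), in the R64 assembly, 5′ to 3′ along the gene. Capitals mark AR1 sites and sterol response elements, which appear as TATACGA where they lie on the other strand.
PAU24: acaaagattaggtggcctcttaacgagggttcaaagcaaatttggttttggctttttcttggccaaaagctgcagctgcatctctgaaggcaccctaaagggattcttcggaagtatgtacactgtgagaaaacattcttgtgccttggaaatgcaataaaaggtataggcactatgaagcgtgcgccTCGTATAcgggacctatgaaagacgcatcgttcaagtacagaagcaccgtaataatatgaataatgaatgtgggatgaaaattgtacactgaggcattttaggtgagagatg
PAU23: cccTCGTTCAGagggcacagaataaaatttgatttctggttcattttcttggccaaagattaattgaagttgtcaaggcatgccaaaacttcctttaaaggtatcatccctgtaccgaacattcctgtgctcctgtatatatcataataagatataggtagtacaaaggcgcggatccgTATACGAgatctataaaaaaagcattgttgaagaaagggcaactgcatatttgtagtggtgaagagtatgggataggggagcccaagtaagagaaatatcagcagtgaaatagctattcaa
DAN1: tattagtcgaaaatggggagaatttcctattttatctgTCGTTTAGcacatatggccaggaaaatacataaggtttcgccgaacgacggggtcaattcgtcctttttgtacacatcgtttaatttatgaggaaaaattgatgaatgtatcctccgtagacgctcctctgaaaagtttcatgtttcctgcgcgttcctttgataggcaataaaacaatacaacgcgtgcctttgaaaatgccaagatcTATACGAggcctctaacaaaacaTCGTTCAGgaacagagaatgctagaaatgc

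PAU24 has a sterol response element 262 bases before its start codon and no AR1 site in the window. PAU23 has an AR1 site at 447 bases and a sterol response element at 271 bases. DAN1 has AR1 sites at 412 and 180 bases and a sterol response element at 203 bases. PAU24, with the largest change of the 30 genes in glucose, and PAU23, with the smallest, therefore both hold a sterol response element. PAU1, PAU13, PAU14, TIR1 and TIR2 hold neither site in their windows, and rose by 10.04, 9.10, 10.04, 7.47 and 5.76 in glucose. Relations between the sites and the changes were not tested.

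The counts of the gene lists that follow stand against high shares over all reading frames. In glucose the deletion had 30.1% of them higher and 37.8% lower, and in mannose 38.3% higher and 41.1% lower. Of 10 regulator genes, 7 were higher and 2 lower in the deletion in glucose, where the 2 lower were the deleted CYC8 and TUP1, its partner (-0.51 ± 0.08, a call lost with a fixed biological coefficient of variation of 0.2). UPC2, the activator of DAN and TIR genes, had 253 and 246 CPM in the deletion against 43.7 and 47.5 CPM in wild type in glucose (2.45 ± 0.08). ROX1, the repressor of genes of low oxygen, had 280.0 and 295 CPM in the deletion against 71.9 and 80.2 CPM in wild type (1.92 ± 0.08). Both the activator and the repressor were thus higher in the deletion. NRG1, a repressor that works with Cyc8 and Tup1, rose by 5.01 ± 0.09.

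In mannose 8 of the 10 regulators were higher and 2 lower in the deletion, with ROX1 at 961.5 CPM against 58.8 CPM in wild type. Within the deletion strain mannose raised 6 and lowered 3, against 37.6% higher and 39.7% lower of all reading frames tested. The 6 include the deleted CYC8 itself, with 180 counts in mannose against 71 and 124 in glucose in the deletion strain. The 2 lower by genotype in mannose were CYC8 and TUP1. ROX1 rose by 1.74 ± 0.09 in mannose within the deletion strain, ECM22, a relative of UPC2, by 1.74 ± 0.09, and UPC2 by 0.82 ± 0.09. In wild type mannose lowered 2 of the 10 regulators and raised none, against 16.9% lower and 20.5% higher of all reading frames tested. The share of lower calls is therefore near the background. MOT3 fell by 0.42 ± 0.10 and ROX1 by 0.37 ± 0.10, and the call of ROX1 was lost without wild-type glucose replicate 2. Both calls were lost with the fixed coefficient of 0.2. Relations between these changes and those of the wall genes were not tested.

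Other genes known to be induced without oxygen also rose in the deletion. Of 10 such genes, 8 were higher and 1 lower in glucose, and 9 were higher in mannose. ANB1, the hypoxic form of the translation factor eIF5A, had 187 and 173 CPM in the deletion against 2.42 and 2.51 CPM in wild type in glucose (6.18 ± 0.11). CYC7, the hypoxic form of cytochrome c, had 26.4 and 22.5 CPM against 1.09 and 1.02 CPM (4.53 ± 0.14). The 1 gene that fell was OLE1, the fatty acid desaturase gene, by 0.47 ± 0.08. Its call was lost with a fixed biological coefficient of variation of 0.2.

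Within the deletion strain 5 of these genes were higher and 4 lower in mannose, close to the shares over all reading frames (37.6% and 39.7%). ANB1 fell by 1.10 ± 0.10 and AUS1 by 1.37 ± 0.10. OLE1 had 7157 CPM in mannose against 298 and 297 CPM in glucose (4.59 ± 0.10). In wild type mannose raised 3 and lowered 2 of the 10, near the shares of 20.5% and 16.9% over all reading frames. CYC7 was higher by 1.14 ± 0.24 and AUS1 lower by 0.43 ± 0.10, calls lost with the fixed coefficient of 0.2.

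The aerobic wall protein genes did not fall as a group. Of 5 such genes, 3 were higher and 1 lower in the deletion in glucose, and 3 higher and 2 lower in mannose. CWP1 had 1263 and 1210 CPM in the deletion against 51.3 and 52.2 CPM in wild type in glucose (4.58 ± 0.09). CWP2 had 1951 and 1723 CPM in the deletion against 1340 and 1515 CPM in wild type in glucose (0.36 ± 0.09, a call lost with the fixed coefficient, and -0.88 with the GC and length trends removed), but 765 CPM against 2178 CPM in mannose (-1.51 ± 0.12). TIP1, a wall mannoprotein related to the TIR proteins, rose by 3.14 ± 0.09 in glucose and 3.64 ± 0.13 in mannose. In wild type mannose raised all 5 aerobic wall genes, against 20.5% higher of all reading frames tested. CWP1 rose by 1.52 ± 0.10 and the others by less, from 0.39 (CCW12) to 0.71 (SED1), with 1 library in mannose. In this comparison the larger change of TIR4 (0.91 ± 0.12) was not called with the fixed coefficient of 0.2. The changes from 0.39 to 0.71 are therefore not firm. The wild-type library in mannose also had a GC trend (Spearman's rho 0.426), and values without this trend are not given for these changes.

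Of 8 genes for silencing near chromosome ends and for histone deacetylation, 1 was higher and 5 were lower in the deletion in glucose, and 3 were higher and 2 lower in mannose, where the share of higher calls is near that over all reading frames (38.3%). SIR2, a deacetylase gene, had 15.1 and 14.8 CPM in the deletion against 24.4 and 22.3 CPM in wild type in glucose (-0.64 ± 0.10, a call lost with the fixed coefficient of 0.2). RAP1, which encodes a protein that binds chromosome ends, fell by 0.83 ± 0.07 in glucose and by 1.03 ± 0.11 in mannose. Within the deletion strain mannose raised SIR2 by 0.91 ± 0.12.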

How the data were processed

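The deposited files hold, for each library, a whole-number read count per reading frame and a length, which equals the coding length in codons minus 10 for 5969 of the reading frames. The build sacCer3 and the programs TopHat2 2.0.9, Bowtie2 2.3.4.2 and CASAVA 1.8 are named, with no role or order, per the submitters' processing notes. Which program counted reads, on which annotation and strand, and how multiply matching reads were handled were not given in the sources used here. Libraries were depleted of ribosomal RNA and made with a stranded kit, per the labels' protocols. The second column is given by the authors in a unit of its own and was not used for tests.

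Tests on the deposited counts used edgeR 4.0.16 (R 4.3.3): filterByExpr by group (6146 of 6696 reading frames kept, all 30 members among them), TMM factors, 1 mean per group and the quasi-likelihood F test, with Benjamini-Hochberg adjustment over all reading frames tested and calls at an adjusted p under 0.05. The fit has 2 residual degrees of freedom, from the glucose pairs, and its common biological coefficient of variation is 5.54%. The median of the prior degrees of freedom is 86.7, so the p-values rest mostly on a spread pooled across reading frames, not on each gene's own replicates. The standard error of a log2 change is its size divided by the square root of its F statistic. CPM values are computed here with TMM factors. Reading frames outside the reference annotation took 0.207% to 0.626% of counts and were kept. Depth was 26195734 to 44084216 counts per library, and where nothing was counted, up to 3 counts (0.0667 to 0.132 CPM) remain possible by counting error alone. Ratios of low counts have 95% intervals from exact binomial (Clopper-Pearson) bounds.

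Sequences, coordinates and positions come from the RefSeq genome and annotation of assembly R64, on which all 30 identifiers matched. Alternatives were DESeq2 1.42.0, its size factors, upper-quartile factors, no filter, a fixed spread, leaving out each glucose replicate, removal of GC and length trends (mgcv 1.9.3), equal copies as 1 feature, and a replicate block. Steps were tested on simulated data. The members, the gene lists and the tests were chosen with earlier results of these data known. By the rule for named genes, all 30 members and any gene of the lists of regulators, other anaerobic genes, aerobic wall genes and silencing genes could be named, with the counts of each list given.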

Additional observations from a re-analysis of the deposited data

Results flagged for a closer look

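For 25 of the 30 genes the effect of the deletion differed between the media by the interaction term (effect in mannose minus effect in glucose, log2, adjusted p under 0.05 in edgeR's quasi-likelihood test). Of all reading frames tested, 29.7% were called higher and 34.4% lower by this term. In the 121-codon class the term was -2.23 for PAU1 and for PAU14, which share their reads, -2.11 for PAU24, -1.80 for PAU18, -1.75 for PAU2, -1.68 for PAU6 and PAU10, -1.65 for PAU13, -1.63 for PAU8 and PAU12, -1.61 for PAU4, -1.58 for PAU20 and -1.57 for PAU11. It was -2.15 for PAU5, -1.61 for PAU9, -1.98 for PAU19, and -1.21 for PAU21 and for PAU22. Among the wall mannoprotein genes it was -1.74 for TIR4, -0.88 for DAN1, -0.83 for TIR3, -0.79 for TIR1 and -0.60 for TIR2. It was above 0 for PAU23 (1.63) and DAN4 (0.73). The terms rest on 1 library for each mannose group. Without wild-type glucose replicate 2 the calls of PAU19 (-1.35), PAU21 and PAU22 (-0.93 each) were lost, and without wild-type glucose replicate 1 those of DAN1 (-0.62) and TIR2 (-0.44).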

How the results depend on the processing

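The direction and call of the deletion's effect in glucose held for 29 of the 30 genes under each alternative run, and so did those in mannose, except for TIR3. With a biological coefficient of variation fixed at 0.2, the genes called fell in number to 0 higher for mannose in wild type (3 with the fitted spread), 16 lower for mannose in the deletion (25), and 1 higher and 15 lower for the interaction (2 and 23), where a larger spread was set by construction. With the GC and length trends removed the interaction had 1 gene called higher. The same setting turned the direction of PAU23 (-0.40, and -0.42 with the replicate block) and CWP2 (-0.88 and -0.89) for genotype in glucose, of TIR1 (-0.010) for mannose in wild type, of PAU3 (-0.33) and TIP1 (-0.038) for mannose in the deletion, of TIR3 (-0.24) for genotype in mannose, and of PAU3 (-0.072) for the interaction. PAU3, never called in these comparisons, also turned with upper-quartile factors (-0.24 for mannose in the deletion, -0.19 for the interaction), and when single glucose replicates were left out (-0.21 to 0.13 for mannose in the deletion, -0.26 to 0.28 for the interaction), as did PAU16 for the interaction (-1.72 to 0.38). The cause was not tested. Leaving out each glucose replicate in turn gave 29 genes higher for genotype in glucose, 30 for genotype in mannose, 25 lower and 2 higher for mannose in the deletion, 2 to 3 higher for mannose in wild type, and 20 to 24 lower and 2 higher for the interaction. Leaving out a mannose library removes its group, so it gives no value.

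The replicate numbers share only a number: over 2 pairs the replicate differences of the deletion and of wild type had a correlation of -0.0463 across genes. With the replicate block on the 4 glucose libraries 29 of the 30 genes were called higher, as without it, and calls over all reading frames were 1956 higher and 1965 lower against 2036 and 2043 without it. With copies of equal counts joined into 1 feature, 27 of 28 were higher in glucose and 28 of 28 in mannose. Depth limits PAU3, PAU15, PAU16 and PAU19, which had 22 or fewer counts over the wild-type glucose libraries.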
